A study of Caenorhabditis elegans with 2 samples.

Results

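The collagen and cuticle genes described here are 179 of the 19973 nuclear protein-coding genes of Caenorhabditis elegans in the Ensembl annotation of the WBcel235 assembly. They were chosen by symbol alone: 156 col genes, 6 bli genes, 4 rol genes, 3 sqt genes and 10 dpy genes, the last limited to numbers that name cuticle genes. The other 19794 nuclear protein-coding genes are the comparison. Chromatin immunoprecipitation followed by sequencing (ChIP-seq) had been carried out with an anti-GFP antibody, per the labels (whose antibody field reads ceh-63), on 2 biological replicates of strain OP742, which form 1 group. The animals carried the transgene wgIs742, which joins C02F12.10 (the homeodomain gene ceh-63) to TY1, EGFP and 3xFLAG tags and brings a wild-type unc-119, in an unc-119 (tm4063) mutant background. They were whole L1 larvae of both sexes, aged 6 hours and held without food once bleached eggs had hatched, so each library mixes all tissues of many animals. The series holds no untreated or untagged group, the control library used by the authors was not analysed here, and the labels name neither the promoter of the transgene nor the number of lines tested.

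The cuticle of C. elegans is an outer coat secreted by the epidermis, and most of its structural protein is collagen. Cuticular collagens are short proteins whose repeated glycine-X-Y triplets wind into a triple helix. A new cuticle is laid down before each moult, when the collagen genes are switched on in successive waves, and loss of single members gives dumpy, roller, squat or blistered animals. CEH-63 is known from the DVC interneuron, a cell that does not build cuticle.

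The label was checked against the gene models. Of the 179 members, 174 had at least 8 Gly-X-Y triplets in a row in their longest coding sequence, with 14 to 198 such triplets in all. The 5 others were bli-3, which encodes a dual oxidase that cross-links the cuticle, bli-4, a subtilisin-like proprotein convertase, bli-5, a protease inhibitor, rol-3, a receptor tyrosine kinase, and col-17, in whose model no run of this kind was found. Most members are therefore collagen genes, and 4 are known cuticle genes of another kind.

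The values are ranks. The authors deposited 1 list of peaks for each replicate and 1 for both replicates pooled, each with 30000 peaks, and a reproducible list of 479 peaks, which are ranks 1 to 479 of the pooled one. Rank 1 is the peak with the highest signal in its list, and ranks were never compared between lists as levels. A gene was given the best-ranked peak with a summit up to 1000 bp from any of its annotated starts. Read depth is unknown. The lists run far into weak peaks: 194 of the 30000 pooled peaks, 172 of those of replicate 1 and 191 of those of replicate 2 had a q-value of 0.05 or less, and none of the members' pooled peaks did (highest deposited −log10 q 0.397). A peak near a gene gives a position and does not show that CEH-63 was bound there.

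Sequences around the summits of 7 well-ranked members are shown as examples. They are not a typical sample of where the members' peaks lay: Gly-X-Y codons held 19 of the 91 best pooled summits (20.9%). Each is 101 bases long, centred on the summit of the best pooled peak, in WBcel235 coordinates and written 5′ to 3′ on the strand of the gene named. Capitals mark the bases of glycine codons in the reading frame of that gene, and codons may be cut at the ends.
col-137, chrIV:16601912-16602012, reverse strand: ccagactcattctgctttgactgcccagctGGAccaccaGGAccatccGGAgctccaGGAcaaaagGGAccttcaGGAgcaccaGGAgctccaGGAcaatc
bli-6, chrIV:6377643-6377743, forward strand: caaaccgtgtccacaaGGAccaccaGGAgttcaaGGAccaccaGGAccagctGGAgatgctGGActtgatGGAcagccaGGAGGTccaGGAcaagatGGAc
dpy-9, chrIV:258365-258465, reverse strand: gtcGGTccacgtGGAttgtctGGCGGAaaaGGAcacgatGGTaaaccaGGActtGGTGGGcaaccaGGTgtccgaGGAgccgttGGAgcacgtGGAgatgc
col-76, chrII:8204914-8205014, forward strand: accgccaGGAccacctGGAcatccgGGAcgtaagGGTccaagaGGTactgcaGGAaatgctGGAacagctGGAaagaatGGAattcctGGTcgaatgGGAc
col-42, chrV:18638825-18638925, forward strand: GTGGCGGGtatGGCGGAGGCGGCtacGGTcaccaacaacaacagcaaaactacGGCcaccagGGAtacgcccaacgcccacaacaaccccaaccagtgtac
col-38, chrII:8569475-8569575, reverse strand: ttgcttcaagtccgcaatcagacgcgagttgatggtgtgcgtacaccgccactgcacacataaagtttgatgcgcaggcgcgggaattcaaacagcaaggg
col-71, chrII:3502767-3502867, reverse strand: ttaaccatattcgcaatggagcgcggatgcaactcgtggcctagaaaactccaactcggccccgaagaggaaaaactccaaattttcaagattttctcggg

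The windows at col-137, bli-6, dpy-9 and col-76 lay wholly in coding sequence of the member itself and held 8, 11, 13 and 11 whole glycine codons, spaced in the Gly-X-Y pattern over 71, 67, 83 and 94 of their 101 bases. The window at col-42 was also wholly coding, with 9 glycine codons that fell outside the Gly-X-Y runs. Those at col-38 and col-71 lay upstream of their genes and held no coding base of them. The homeodomain core ATTA, searched as ATTA and TAAT so that both strands were covered, occurred in none of the 7 windows. These windows follow no set rule and leave out col-48, dpy-5 and col-63, so this absence describes them only. Over all members, the core occurred in 33 of the 90 separate windows under the best pooled peaks (36.7%). It occurred in 50.1% of the 479 reproducible and 57% of the 30000 pooled windows of the same length. The longer word TAATTA reads the same on both strands and contains both spellings of the core. It occurred in 3 of the 90 (3.33%), against 5.22% of the reproducible and 3.9% of all pooled windows. The members' windows were richer in G and C, with a median of 49.5% against 38.6% for all pooled windows. The part of base composition in these shares was not tested, and a missing match says only that the letters are not in the window.

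A peak lay near the start of about as many collagen and cuticle genes as of other coding genes. In the pooled list, 91 of 179 members had one, or 50.8% (43.6 to 58.1, the 95% Wilson limits), against 53.3% of the rest. In replicate 1 it was 90 members, or 50.3% (43 to 57.5), against 53.4%. In replicate 2 it was 93 members, or 52% (44.7 to 59.2), against 53%. The share of other genes lay inside the members' interval in each list. The difference in the pooled list was -2.51 percentage points, and it changed sign to 2.64 when members and other genes were both limited to those with 1 annotated start.

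The number of annotated starts moved with this comparison. A gene with more starts has more sequence in which a peak can be found, and 86.6% of the members had 1 start, against 72.5% of the other genes. With 1 start, 79 of 155 members had a pooled peak (51%), against 48.3% of the 14343 other genes of that kind. With 2 or more, it was 12 of 24 members (50%), against 66.6% of 5451 other genes. The part of the number of starts in the overall shares was not tested beyond this split.

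Across lists, 62 members had a peak in both replicates (34.6%, limits 28.1 to 41.9), against 36.4% of the rest, and this order turned round among genes with 1 annotated start (34.8% against 30.9%), with starts within 2000 bp (60.9% against 60.3%) and with 1 start taken per gene (33% against 32.2%). For 45 members the peaks of the replicates had summits no more than 200 bp apart (25.1%, 19.4 to 32), against 27.5%. All 3 relaxed lists had a peak at 58 members (32.4%), against 34.2% of the other genes. At 57 members (31.8%) none of the 3 had one, against 28.6% of the other genes. The members in none of the lists included rol-3 and sqt-2.

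At the strong end the order of the members and the other genes depended on the list, the rank and the number of starts. None of the 179 members had a reproducible peak (0%, 95% limits 0 to 2.1), against 331 of the rest (1.67%), a share inside the members' interval. Up to rank 1000 of the pooled list there were 5 members (2.79%), against 3.18%. Up to rank 5000 there were 21 (11.7%, 7.8 to 17.3), against 12.4%, and among genes with 1 start it was 11.6% of members, against 9.61%. In the replicates, 15 members reached rank 5000 in each (8.38%, 5.14 to 13.4), against 12.9% in replicate 1 and 12.3% in replicate 2. Up to rank 15000 it was 26.8% of members (20.9 to 33.7) in the pooled list, against 31.6%, and 33% (26.5 to 40.1) in replicate 1, against 31.9%. In replicate 2 it was 39 members, or 21.8% (16.4 to 28.4), against 31.4%, a share outside the members' interval. That interval treats members as independent, which genes in shared neighbourhoods are not, and several lists and ranks were looked at. The lower share of replicate 2 was thus not matched in replicate 1 at this rank, where members and other genes had similar shares. No set test was run, so these shares describe the lists and do not show a deficit.

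**Figure D1:**
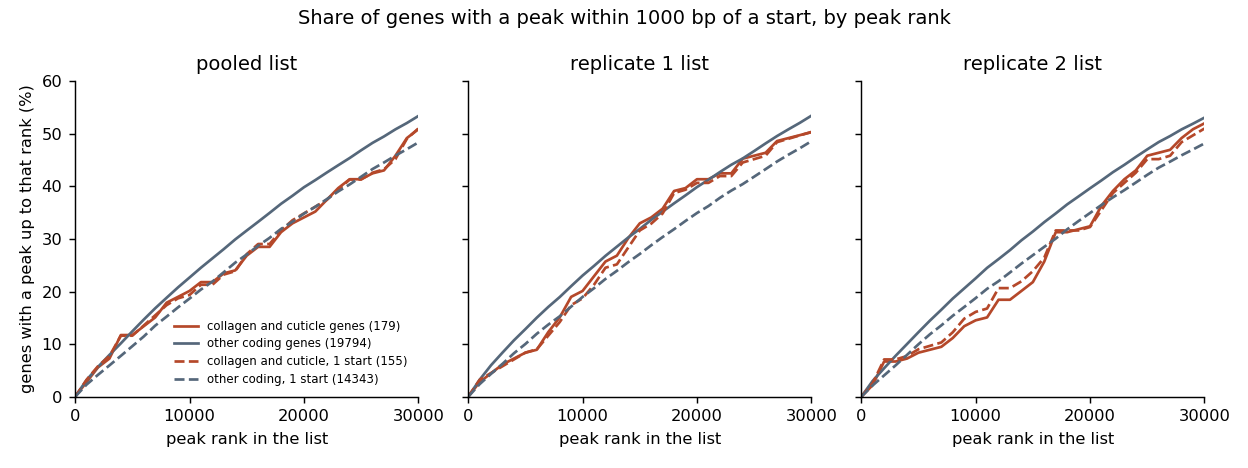
Share of genes (%) with a peak within 1000 bp of a start, added up from the best rank to the rank on the x axis, in the pooled list and in each replicate list, for collagen and cuticle genes and other coding genes (solid lines) and for those with 1 annotated start (dashed lines). In the pooled list the members end at 50.8% and the other genes at 53.3%, and among genes with 1 start the members end at 51% and the others at 48.3%.

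Among genes with a peak, the members had weaker ranks in one replicate and level ones in the other. The median best rank of the 93 members with a peak in replicate 2 was 16046, against 12206.5 for the other genes. In replicate 1 the 90 members had a median of 11957, against 11966. In the pooled list the 91 members had a median of 14696, with the middle 50% between 5563 and 22204, against 12226. The difference in median rank was thus 2470 for pooled peaks, -9 for replicate 1 and 3839.5 for replicate 2, where a positive value means weaker peaks at the members. The spread between the replicates (SD 2721) was larger than the pooled difference. Limited to genes with 1 start, the medians were 14696 against 13251 for pooled peaks, 12972.5 against 13201 for replicate 1 and 15389 against 13270 for replicate 2.

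The member with the best pooled rank, col-48, encodes a cuticular collagen and lies on chromosome I. Its peak (3011114 to 3011483, in its coding exon, 615 bp downstream of the start) had rank 493 in the pooled list, 1889 in replicate 1 and 711 in replicate 2. It stood just outside the reproducible list: its deposited signal was 110.71, and the weakest reproducible peak, rank 479, had 111.58. Next came col-42 on V (18638690 to 18639059, coding exon, 391 bp downstream), with rank 560 in the pooled list, 816 in replicate 1 and 1642 in replicate 2. With col-38, col-103 and no other of the best 10, these genes ranked in the top 2000 of all 3 relaxed lists.

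The following ranks rested more on one replicate. col-137 on IV (16601777 to 16602146, 814 bp downstream) had rank 769 in the pooled list, 511 in replicate 1 and 3761 in replicate 2. bli-6, a collagen gene whose mutants form blisters, on IV (6377508 to 6377877, 628 bp downstream), had rank 822, with 7067 in replicate 1 and 1131 in replicate 2. dpy-5, a collagen gene needed for normal body length, on I (5432465 to 5432834, 401 bp downstream), had rank 891, with 453 in replicate 1 and 8077 in replicate 2. All 3 peaks lay in coding exons of the member, and that at col-137 was nearer to the start of a small non-coding gene (540 bp). Their place was shared where their rank was not: the summits at dpy-5 lay 410 bp from the start in replicate 1 and 419 bp in replicate 2, and those at bli-6 631 and 635 bp.

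The other members of the best 10 were col-38, col-63, col-103, col-120 and dpy-9. The peak at col-38 on II (8569340 to 8569709) had rank 1031 in the pooled list, 1613 in replicate 1 and 1624 in replicate 2. It lay 437 bp upstream, in an exon of the non-coding gene F54C9.17 (37 bp from its start), and was closer to the start of rpl-5, a large-subunit ribosomal protein gene (402 bp). The peak at col-63 on I (8245444 to 8245813) had rank 1176, with 14979 in replicate 1 and 752 in replicate 2, and lay 666 bp upstream, 7 bp from the start of ZK265.11. Neither of these peaks can be tied to the collagen gene rather than to its neighbour.

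col-103 on IV (763256 to 763625, in an intron, 237 bp downstream) had rank 1568 in the pooled list, 443 in replicate 1 and 1633 in replicate 2. Its replicate summits were in coding exons, 327 and 109 bp downstream, more than 200 bp apart, and it was the 1 member of the pooled top 5000 for which the replicates had no pair of summits within that distance. col-120 on IV (9260621 to 9260990, coding exon, 981 bp downstream) had rank 1753, with 797 in replicate 1 and 9812 in replicate 2. dpy-9, a furrow collagen gene, on IV (258230 to 258599, coding exon, 788 bp downstream), had rank 1900, with 2437 in replicate 1 and 1908 in replicate 2. Outside the best 10, 3 genes had one of the 5 best ranks of replicate 2: col-85 (689, against 13097 in replicate 1), col-71 (807, against 15611) and col-76 (1090, against 10979). The pooled peak at col-85 lay in an intron, 63 bp from the start of another gene, and that at col-71 lay 151 bp from the start of Y49F6B.2, nearer than col-71 itself (247 bp).

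Within the 58 members with a peak in all 3 relaxed lists, 32 had the better rank in replicate 1 (55.2%, against 50.3% of the other genes of this kind) and 26 in replicate 2. Ranks more than 10000 apart were found for 24 (41.4%, against 32.2%). In the top 5000 of both replicates were 6 of the 179 members (3.35%, against 5.36%): col-48, col-42, col-137, col-38, col-103 and dpy-9. All 6 were among the 58, of which another 8 were in the top 5000 of replicate 1 only and 9 in that of replicate 2 only. Members outside the 58 are not in these 2 counts. The 6 were 40% of the 15 members in the top 5000 of replicate 1, against 41.7% for the other genes, and 40% of the 15 in that of replicate 2, against 43.7%. These shares count genes with a peak of that rank in each replicate, and the peaks of the replicates need not lie at the same place, as at col-103. With 6 members, they do not settle whether members and other genes differ in this.

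**Figure D2:**
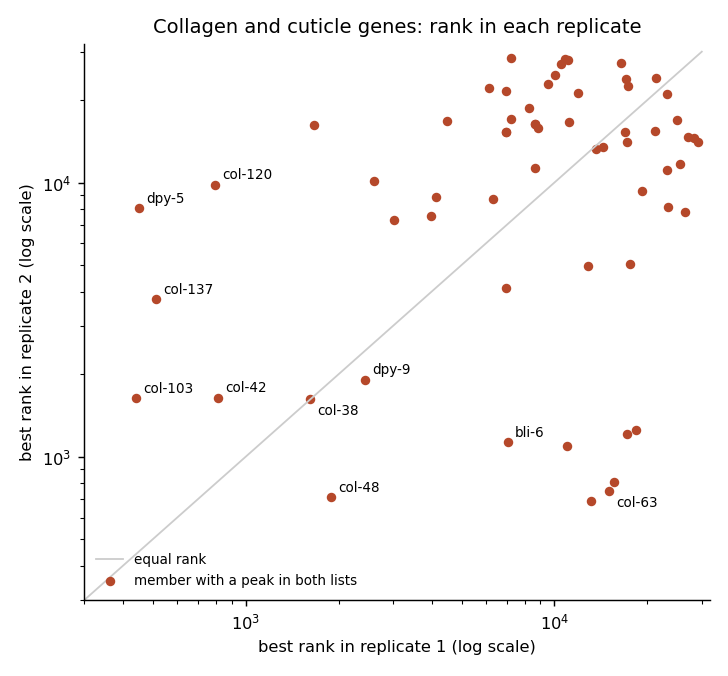
Best peak rank in replicate 1 (x axis) and replicate 2 (y axis), both on log scales, for the 62 collagen and cuticle genes with a peak in both lists, with the 10 members of best pooled rank named and a line of equal rank. dpy-5 (453 and 8077) and col-63 (14979 and 752) lie far from the line on opposite sides, while col-38 (1613 and 1624) lies on it.

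The clearest feature of these peaks was their position. Of the 91 best pooled summits of members, 57 lay downstream of the start (62.6%), against 51.6% for the other genes with a pooled peak. The median position was 313 bp downstream for members and 23 bp downstream for the others. In the gene's own coding exons lay 49 of the 91 (53.8%), against 28.5% for the other genes. No member's best pooled summit was in a 5′ UTR, where 3.7% of the others were, a small share for 91 genes. In replicate 1 it was 1 member (1.11%, against 3.52%) and in replicate 2 it was 0 (against 3.64%). Of the pooled summits of members, 22 were intergenic (24.2%, against 28.5%).

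Both replicates had the higher share in own coding exons. In replicate 1 it was 53 of 90 members (58.9%), against 30.1% of the other genes, and in replicate 2 it was 41 of 93 (44.1%), against 26.1%. Downstream summits were 66.7% of the members' in replicate 1, against 52.2%, but 52.7% in replicate 2, against 50.6%, so the difference on that side was larger in replicate 1. For 27 members the best summit was in an own coding exon in all 3 relaxed lists. They were 46.6% of the 58 members with a peak in each, against 15.2% of the other genes of this kind. Summits were upstream in all 3 lists for 14 of the 58 (24.1%, against 34.2%), including those of col-38, col-63, col-154 and col-132.

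The make-up of the search windows moved with this position. Own coding exons covered 36.4% of the bases within 1000 bp of the members' starts, against 22.6% for the other genes, and introns covered 18.9%, against 31.3%. The members were also shorter, with a median gene length of 1231 bp, against 2039 bp. In both sets of genes the share of best pooled summits in own coding exons, 53.8% for members and 28.5% for the others, was above the share of bases. The bases are those of all genes of a set, while the summits are those of genes with a peak only. Gly-X-Y codons made up 15.4% of the members' window bases and held 19 of the 91 pooled summits (20.9%), 18 of 90 in replicate 1 (20%) and 18 of 93 in replicate 2 (19.4%). Of the pooled summits in own coding exons, 38.8% were in Gly-X-Y codons, beside 42.3% of the own coding bases in the windows of all members. In the pooled list the repeats therefore held no larger share of these summits than of the own coding sequence in the members' windows. The corresponding share was 34% in replicate 1 and 43.9% in replicate 2.

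Among members the coding peaks had the better median rank in each list, while the 2 medians of the other genes lay closer together. Members whose best pooled summit was in an own coding exon had a median rank of 12663, against 17473 for the members whose summit lay elsewhere, while the medians of the other genes were 12322 and 12188. Limited to genes with 1 start, the pooled medians were 13208 and 17365 for members, against 13021.5 and 13347.5 for the other genes. In replicate 1 the medians were 10517 and 13604 for members, against 11786 and 12072.5 for the other genes. In replicate 2 they were 14660 and 19364 for members, against 12407 and 12157. Among the 21 members in the pooled top 5000, 13 had their summit in an own coding exon (61.9%), against 27.8% of the 2463 other genes there.

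**Figure D3:**
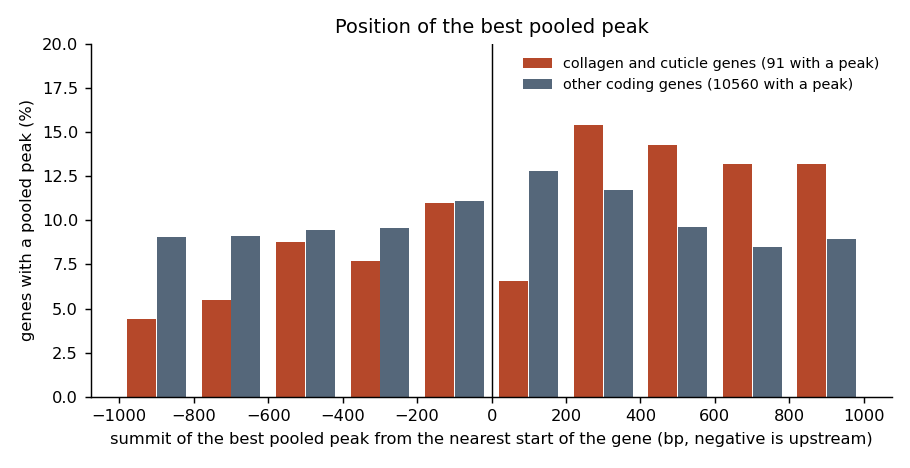
Position of the best pooled summit from the nearest start of the gene (bp, upstream is negative), in bins of 200 bp, as a share (%) of the 91 collagen and cuticle genes and of the 10560 other coding genes with a pooled peak. Members are most frequent from 200 to 400 bp downstream (15.4%, against 11.7%), while the other genes are most frequent in the first 200 bp downstream (12.8%, against 6.59% of members).

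**Figure D4:**
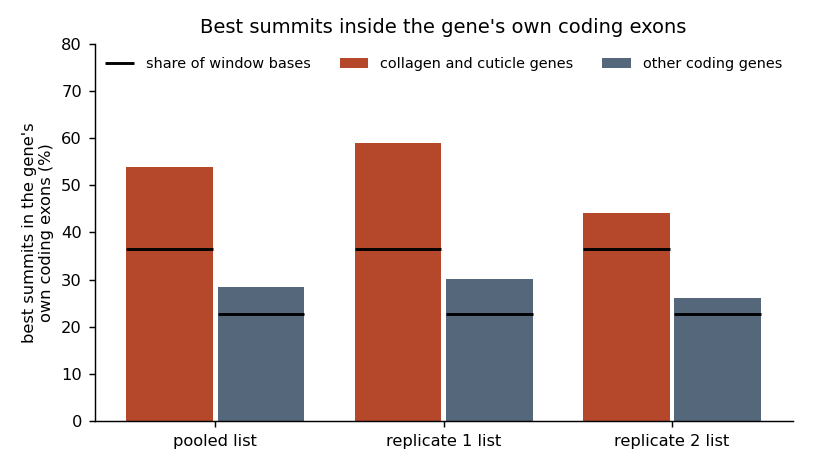
Share (%) of best summits that lie in coding exons of the gene itself, in the pooled list and each replicate list, for collagen and cuticle genes (left bar of each pair) and other coding genes (right bar). The black lines give the share of bases within 1000 bp of a start that are own coding sequence, 36.4% for members and 22.6% for the others. They cover all genes of a set, while the bars cover genes with a peak in the list. Every bar ends above its line.

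The members with known roles showed no shared level. The furrow collagens DPY-2, DPY-3, DPY-7, DPY-8, DPY-9 and DPY-10 form the circumferential furrows of the cuticle. Each of the 6 genes had a peak in replicate 2, 1 of them (dpy-9) in replicate 1 and 4 in the pooled list. Of the coding genes other than the members, 53%, 53.4% and 53.3% had one in these lists, in that order. Besides dpy-9, the pooled ranks were 18529 for dpy-7, 22446 for dpy-3 and 23909 for dpy-8, and the replicate 2 ranks of the 5 genes lay between 15668 (dpy-8) and 22449 (dpy-3). At dpy-3 and dpy-8 the pooled summit lay close upstream of the start, at 24 and 10 bp, and at dpy-7 it lay 662 bp downstream in the coding exon. These 5 genes were near or below the middle of the lists, and dpy-9 stood apart from them.

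Among the other dumpy collagens, all 4 genes had a pooled peak, beside 53.3% of the coding genes other than the members. After dpy-5, the pooled ranks were 12663 for dpy-17, 14696 for dpy-13 and 29146 for dpy-4. dpy-17 was the steadiest of them, with ranks of 14358 in replicate 1 and 13528 in replicate 2. dpy-13 had no peak in replicate 2, and dpy-4 had none in replicate 1.

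The strut collagens BLI-1, BLI-2 and BLI-6 build the columns that join the layers of the adult cuticle. After bli-6, bli-2 had a pooled rank of 17936, with 21254 in replicate 1 and 23984 in replicate 2. bli-1 had a peak in replicate 2 only, with rank 11059. Of the squat and roller collagens, which set body shape and twist, rol-6 had rank 14946 in the pooled list (7212 in replicate 1, 16975 in replicate 2), rol-8 had 20450 (26976 and 14660) and sqt-1 had 21656 (7197 in replicate 1, none in replicate 2). sqt-3 had a peak in replicate 2 only, with rank 16046. The collagen gene rol-1, which was not on these role lists, had a peak in replicate 2 only, with rank 24157. Of the 4 members that are not collagens, bli-3 had pooled rank 22343 and 8720 in replicate 1, bli-4 (12468) and bli-5 (19643) had a peak in replicate 1 only, and none of the 4 had one in replicate 2. With 3 to 6 genes in each of these groups, no difference between them was tested. In each relaxed list about 53% of the coding genes other than the members had a peak.

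**Figure D5:**
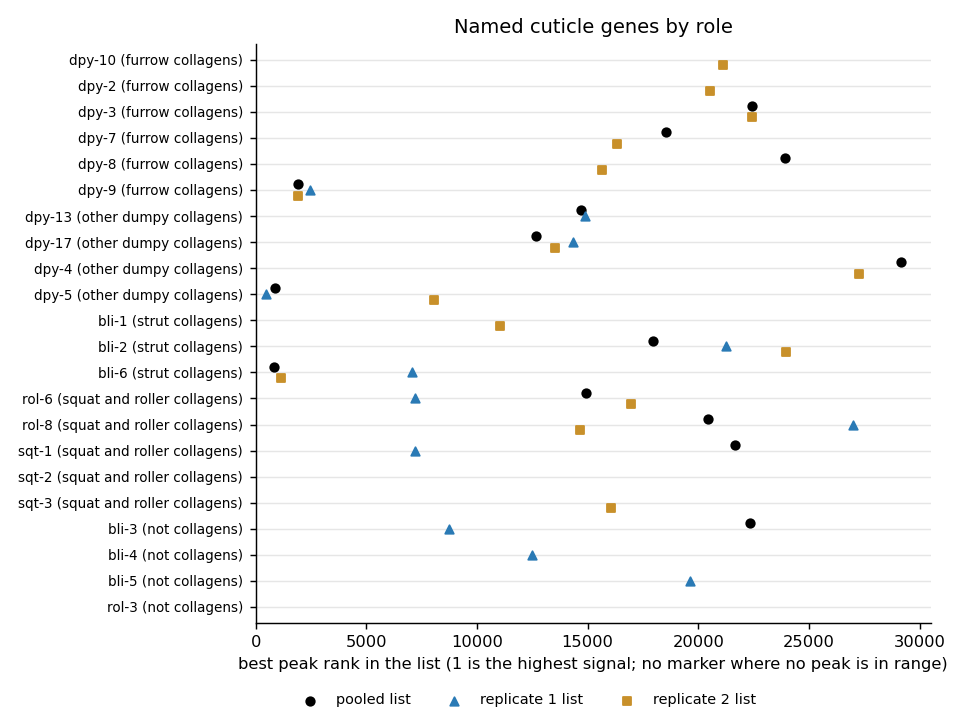
Best peak rank (x axis, 1 is the highest signal) in the pooled list, replicate 1 and replicate 2 for the 22 cuticle genes with a listed role, with no marker where no peak was in range. dpy-5, dpy-9 and bli-6 have pooled ranks under 2000, while the other pooled ranks lie between 12663 and 29146.

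By chromosome, the pooled share of members ranged between 39.4% on V (13 of 33 genes) and 64.3% on III (9 of 14). The other genes ranged between 49.2% on V and 59.9% on III. On IV, which holds the most members, 26 of 45 had a pooled peak (57.8%), against 53.5%, and on X it was 14 of 30 (46.7%), against 52.4%. On V, 5 of 33 members had a peak in both replicates (15.2%), against 32%. Members share neighbourhoods, so these genes are not independent, although the 91 best pooled peaks were 90 separate ones. The shared one, at rank 3743, was the best of both col-46 and col-47, which overlap on opposite strands.

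Few members had a mostly repeated start window. The share of 50-base words that occur once in the genome was computed within 1000 bp of each start, because reads from repeated sequence may have been placed elsewhere or left out by the authors' processing. It was under 50% for 4 of 179 members (2.23%), against 2.08% of the other genes. All 4 were among the 57 members in none of the relaxed lists (7.02% of these, against 6.65% of the other genes in no list), where the median was 99.3%. Several members above the 50% mark also had partly repeated windows and were in no list, such as col-94 (61%). Others, such as col-154 (59.8%), had a pooled peak. The G and C share of the windows had a median of 42.5% for members, against 35.4% for the other genes. For members with a pooled peak it was 42.9%, against 42.2% for members without one. The parts of repeats and base composition in peak presence were not tested.

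Other genes of cuticle formation, from lists set by role, had a pooled peak at 28 of 45, beside the 53.3% of coding genes other than the members. None of the 45 had a reproducible peak, which at a share of 1.67% over those genes says little of so short a list. Among the collagen processing enzymes 6 of 10 had one, led by dpy-11, which encodes a thioredoxin-like protein of the epidermis. Its peak lay 494 bp upstream, with rank 506 in the pooled list, 227 in replicate 1 and 5373 in replicate 2. Next were let-268, a lysyl hydroxylase gene (14166), and phy-2, a prolyl hydroxylase subunit gene (17118). Of the non-collagen genes of the apical matrix 8 of 16 had one, led by noah-2 (rank 589, with 311 and 3911 in the replicates, 29 bp downstream), sym-1 (11419) and the cuticlin gene cut-3 (13004). Of other collagen genes 2 of 5 had one, lon-3 (12279) and cle-1 (18404), and the basement membrane collagen genes emb-9 and let-2 had none in any relaxed list.

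Regulators of the epidermis and of moulting, most of them transcription factors, stood highest of these lists, with a pooled peak at 12 of 14 genes, a peak in both replicates at 10 and a median pooled rank of 4923.5. Most genes of this list had 2 or more annotated starts, and over all coding genes of that kind other than the members the shares were 66.6% in the pooled list and 50.8% in both replicates. Their median rank was not computed. Among coding genes other than the members it was 12226 in all and a weaker 13251 in those with 1 start, so the median of the regulators has no matching comparison. The best were pan-1 (1850), lin-29 (2109) and nhr-25 (3129). Each of these 3 had 3 annotated starts, and the list held 4 genes with 1 start, of which bed-3 (4743) and dpy-20 (24765) had a pooled peak and blmp-1 and myrf-1 had none. The lists are small, and their differences from the members were not tested.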

How the data were processed

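Peak lists from 2 ChIP-seq replicates of 1 group were analysed on ce11, which is WBcel235 under another name. The deposited README files list each replicate and pooled peak file as derived from its alignments and 1 further file common to all, taken here as the control, and the authors derived the reproducible list by irreproducible discovery rate. For aligner, caller and threshold, nothing is given in the sources used here. The deposited signal values have no stated scale and served only to rank peaks within a list. The deposited −log10 q-values are those of the format's ninth column. Read counts are not part of these lists, so depth is unknown. Wilson intervals cover the counting of genes only and treat genes as independent, which members in shared neighbourhoods are not.

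Starts, exons and coding frames came from Ensembl release 115, and sequence from the RefSeq copy of WBcel235. Every peak lay inside its chromosome there. Distances run from start to summit. Gly-X-Y runs of 3 or more triplets were found in the translated longest coding sequence. Mitochondrial genes and pseudogenes were left out. Peak assignment was tested on simulated peaks. Python 3.11.15, numpy 2.4.6, pandas 2.3.3 and matplotlib 3.10.9 were used.

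The members and lists were chosen with earlier results of these data known, so no test was run over them. Named genes are the members with the 10 best pooled ranks or the 5 best of either replicate, those with listed roles, the 3 best of each pathway list, and genes with a nearer start to such a peak. dpy-20, bed-3, blmp-1, myrf-1, emb-9, let-2, rol-1, col-17, col-46, col-47, col-154, col-132, col-151 and col-94 were named outside this rule, with their values already seen. Alternatives were other distances, distance to the peak edge, 1 start per gene, nearest gene only, shorter lists, genes with 1 start, autosomes, and single replicates. A list of 1000 peaks was added after the data were seen.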

Additional observations from a re-analysis of the deposited data

How the results depend on the processing

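The pooled share of members minus that of other genes (-2.51 points) kept its sign under 11 of 12 alternatives and was 2.64 among genes with 1 annotated start. With 1 replicate left out, the list of the other replicate stood in for the pooled list, which was not remade. The difference was then -3.13 in replicate 1 and -1.08 in replicate 2. The share with a peak in both replicates (-1.72 points) became 0.643 with starts within 2000 bp, 0.805 with 1 start per gene and 3.97 among genes with 1 annotated start. A single replicate list cannot give this share. The count of members with a reproducible peak was 0, and 3 with starts within 2000 bp. The difference in median pooled rank (2470) became -608 in the top 15000 peaks and -134 in the top 5000. In the single replicate lists it was -9 in replicate 1 and 3839.5 in replicate 2. The cause of these changes was not tested. Of 24 named members with a pooled peak, 9 had none within 500 bp of a start and 2 had another (col-63 at rank 14045, col-120 at 26367). Another peak was best for 4 within 2000 bp (col-103 at rank 331) and for 2 with the nearest gene only (col-38 at 26536). All 24 kept the same peak with 1 start per gene. No paired analysis was possible because both replicates form 1 group. Without read depth, peak absence cannot be told from low coverage.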

Other observations

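The nearest reproducible peak lay at a median of 63377 bp from the starts of the collagen and cuticle genes, against 88891.5 bp for the other coding genes. Within 5000 bp there was one for 10 members (5.59%), against 4.67%, and within 2000 bp for 3 (1.68%), against 2.49%. Those 3 were col-151 (1254 bp, rank 304), col-103 (1688 bp, rank 331) and col-94 (1748 bp, rank 99). The furrow collagen gene dpy-7 had a reproducible peak of rank 143 at 3172 bp from its start, while its own best pooled peak had rank 18529. The protease inhibitor gene bli-5 had one of rank 467 at 3071 bp and no pooled peak within 1000 bp.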
